A study of Mus musculus with 36 samples.

Results

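The genes described here are the cytochrome P450 (Cyp) and glutathione transferase (Gst, Mgst) genes of the mouse as they were expressed in the dorsal vagal complex of 3 inbred strains. They were chosen by symbol alone, from the annotation of the series, and 67 of its 24344 genes belonged to them, 45 P450 genes and 22 transferase genes. The dorsal vagal complex is a hindbrain region. It includes the nucleus of the solitary tract, where vagal sensory fibres end, and the motor nucleus from which vagal fibres leave. RNA of 36 libraries was sequenced, 12 each from C57BL/6J, a common laboratory strain, NZO/HlLtJ, which becomes obese and often diabetic, and CAST/EiJ, a wild-derived strain. All mice were labelled wild type. Within a strain, 6 libraries came from mice on a control diet with 10% fat and added fiber, and 6 from mice on a fiber-supplemented diet with 44% fat and high sugar, called HFHS here, each with 3 females and 3 males. The diets began at 6 weeks of age and tissue was taken at 15 weeks.

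P450 enzymes are haem proteins that insert oxygen into fat-soluble substrates. Some act on drugs and other foreign compounds, others on fatty acids, sterols, steroid hormones and the vitamins A and D. Glutathione transferases join glutathione to reactive compounds, among them products of P450 enzymes and of lipid peroxidation, and so prepare them for export. In the brain both groups are studied in glia, neurons and the cells of blood vessels, where they act on cholesterol, retinoic acid, arachidonic acid and oxidised lipids. Many of these genes lie in clusters of recent duplicates, whose reads can be hard to assign to 1 copy.

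The libraries held 22.03 to 49.61 M expected counts, and levels are given as CPM, the counts of a gene scaled to a common library total. The labels do not say that the 3 libraries of a group came from separate mice, so a p-value measures the spread between these libraries, which may be partly technical. In whole tissue, fewer cells that express a gene and less RNA of it per cell cannot be told apart. Gfral, a marker of the region, was at 0 in 13 libraries. The sum of the Hox genes that mark the hindbrain was under 10 CPM in 3 libraries, which were CAST/EiJ male control 1 and 3 and NZO/HlLtJ male control 3. Pituitary hormone genes summed to 17460 CPM in NZO/HlLtJ male control 1, against a median of 4.52 CPM.

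Of the 67 genes, 38 lay in 10 groups of neighbours of the same family with gaps of at most 300 kb. The cluster of mu-class transferases held 7 genes within 149 kb of chromosome 3 (GRCm38, 107895821 to 108044894), in the order Gstm5, Gstm7, Gstm6, Gstm3, Gstm2, Gstm1 and Gstm4. A cluster on chromosome 4 (96099318 to 96591578) held Cyp2j12, Cyp2j11, Cyp2j8, Cyp2j6 and Cyp2j9, and one on chromosome 17 (32452723 to 32947402) held 7 Cyp4f genes. The pi-class pair Gstp1 and Gstp2 lay within 10.6 kb on chromosome 19. Sequences of 50 bases were compared between all transcripts of the gencode vM21 annotation, and 16 of the 67 genes shared at least 10% of theirs with another gene, while 21 shared none. At that threshold 4 sets of members were joined: Gstp1 with Gstp2, Gstm1 with Gstm3 and the pseudogene Gstm2-ps1, Cyp4f16 with Cyp4f37, and Cyp4x1 with Cyp4x1os, which is annotated on the opposite strand. Other members shared sequence with genes outside the list. Of its 50-base sequences, Cyp4a12b shared 49.4% with Cyp4a12a, Cyp21a2-ps 35.7% with Cyp21a1, Cyp2a5 28.1% with Cyp2a4 and Cyp2c65 20.2% with Cyp2c66.

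The pi-class pair had the most similar coding sequences of the member pairs compared. Gstp2 shared 49.1% of its 50-base sequences with Gstp1, and Gstp1 33.7% with Gstp2. Their coding sequences, both of 633 bases, differed at 12 bases and were 98.1% identical, and the longest run without a difference was 303 bases, longer than a read of 100 bases. The first 120 coding bases of both are shown because the reads that tell the pair apart must cover such positions. Capitals in Gstp2 mark the 6 bases there that differ from Gstp1, as read from the gencode vM21 transcripts of the C57BL/6J reference.
Gstp1: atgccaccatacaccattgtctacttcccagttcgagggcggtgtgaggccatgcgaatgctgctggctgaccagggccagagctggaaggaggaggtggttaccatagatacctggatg
Gstp2: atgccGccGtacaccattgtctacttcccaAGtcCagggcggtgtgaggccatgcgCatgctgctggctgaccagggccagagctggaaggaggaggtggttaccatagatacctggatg

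The mu-class genes were further apart. Their coding sequences were 66.1% to 89.5% identical (median 79.1% over 21 pairs). The first 120 coding bases of Gstm1 and of 4 neighbours that differed between strains are shown as well, with capitals where a base differs from Gstm1. There were 18 such bases in Gstm2, 19 in Gstm4, 23 in Gstm6 and 19 in Gstm7, spread along the stretch. Gstm5 begins with other codons and is 69.5% identical to Gstm1.
Gstm1: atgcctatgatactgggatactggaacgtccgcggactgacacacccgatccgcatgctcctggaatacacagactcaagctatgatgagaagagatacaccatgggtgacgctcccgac
Gstm2: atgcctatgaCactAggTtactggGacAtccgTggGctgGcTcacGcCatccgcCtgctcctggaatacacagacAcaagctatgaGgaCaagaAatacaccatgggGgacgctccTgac
Gstm4: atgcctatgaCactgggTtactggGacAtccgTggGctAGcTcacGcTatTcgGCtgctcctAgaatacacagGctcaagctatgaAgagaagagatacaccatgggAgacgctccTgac
Gstm6: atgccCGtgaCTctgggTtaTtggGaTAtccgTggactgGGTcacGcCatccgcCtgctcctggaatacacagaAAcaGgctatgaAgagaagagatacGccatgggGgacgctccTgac
Gstm7: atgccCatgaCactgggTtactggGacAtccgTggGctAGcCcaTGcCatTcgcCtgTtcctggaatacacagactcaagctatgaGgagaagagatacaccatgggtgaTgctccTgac

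Per kilobase of exon, transferases had the highest levels. Gstm1, the mu-class enzyme of highest level here, had a mean of 100.2 CPM per kb over the 36 libraries. It was followed by Gstp1 (64.4), Mgst3 (44.4), a membrane-bound glutathione peroxidase and transferase, Gstm5 (40.8), Gsta4 (25.8) and Gstm7 (19.5). The P450 genes of highest level per length were Cyp2d22 (13.4 CPM per kb), Cyp2j9 (11.3) and Cyp46a1 (10.6), the neuronal enzyme that hydroxylates cholesterol for export from the brain. Gsto1 (10.6 CPM per kb) lay beside them and completed the 10 highest. Summed over all members in a library, the transferases made up 457 to 559.7 CPM in C57BL/6J (median 507), 421 to 513 CPM in NZO/HlLtJ (median 467) and 484 to 613 CPM in CAST/EiJ (median 557). The P450 genes made up 316 to 367 CPM (median 338), 290.0 to 342 CPM (median 321) and 329 to 415 CPM (median 391) in the same order.

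After a filter on low counts, 55 members were tested, 35 P450 and 20 transferase genes, and 16 of them had a mean under 1 CPM. The other 12 were not tested. These were Cyp2a5, Cyp2b19, Cyp2c65, Cyp2j8, Cyp4b1, Cyp4f37, Cyp4f39, Cyp11b1, Cyp17a1, Cyp21a2-ps, Gstm3 and Gstm2-ps1. None of their strain means was above 0.15 CPM, and their highest value was 0.663 CPM, of Cyp4b1 in the library with pituitary reads. Among the 12 are genes of steroid synthesis such as Cyp11b1 and Cyp17a1.

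The comparison of strains asks how the genetic background sets these genes at a given diet and sex. Each contrast averaged the 4 combinations of diet and sex, and p-values of edgeR's quasi-likelihood test were adjusted over 20108 genes by the Benjamini-Hochberg method, a gene being called under 0.05. Between NZO/HlLtJ and C57BL/6J 21 of 55 members were called (38.2%), against 24% of all genes tested. Of these 9 were higher in NZO/HlLtJ, where 11.7% of all genes were, and 12 were lower, where 12.3% were. Between CAST/EiJ and C57BL/6J 44 of 55 (80%) were called, against 52.3% of all genes, 23 higher (24.5% of all genes) and 21 lower (27.8%). Between CAST/EiJ and NZO/HlLtJ 45 of 55 (81.8%) were called, against 50.1% of all genes, 27 higher (22.8%) and 18 lower (27.3%).

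The differences were also larger than those of a typical gene. The median absolute log2 fold change of the members was 0.28 between NZO/HlLtJ and C57BL/6J, 0.59 between CAST/EiJ and C57BL/6J and 0.74 between CAST/EiJ and NZO/HlLtJ, against 0.13, 0.23 and 0.22 over all genes tested. The median signed change was -0.068, 0.042 and 0.34, against 0.0065, -0.0085 and -0.012 over all genes. The 12 libraries of each strain did not overlap in 6 members between NZO/HlLtJ and C57BL/6J (3.68% of all genes did not), in 25 between CAST/EiJ and C57BL/6J (12.6%) and in 22 between CAST/EiJ and NZO/HlLtJ (10.5%). CAST/EiJ was called above both other strains in 21 members and below both in 16, and NZO/HlLtJ above both in 2 and below both in 8. In 5 members, Cyp1a1, Cyp2j9, Cyp2s1, Cyp4f18 and Mgst3, no pair of strains was called. The share of all genes with each of these joint patterns was not computed, so whether the members differ from other genes in them is not known. In single contrasts, CAST/EiJ was called apart from C57BL/6J in 52.3% of all genes and from NZO/HlLtJ in 50.1%. The 3 contrasts share libraries, so each gene's values are given side by side.

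**Figure D1:**
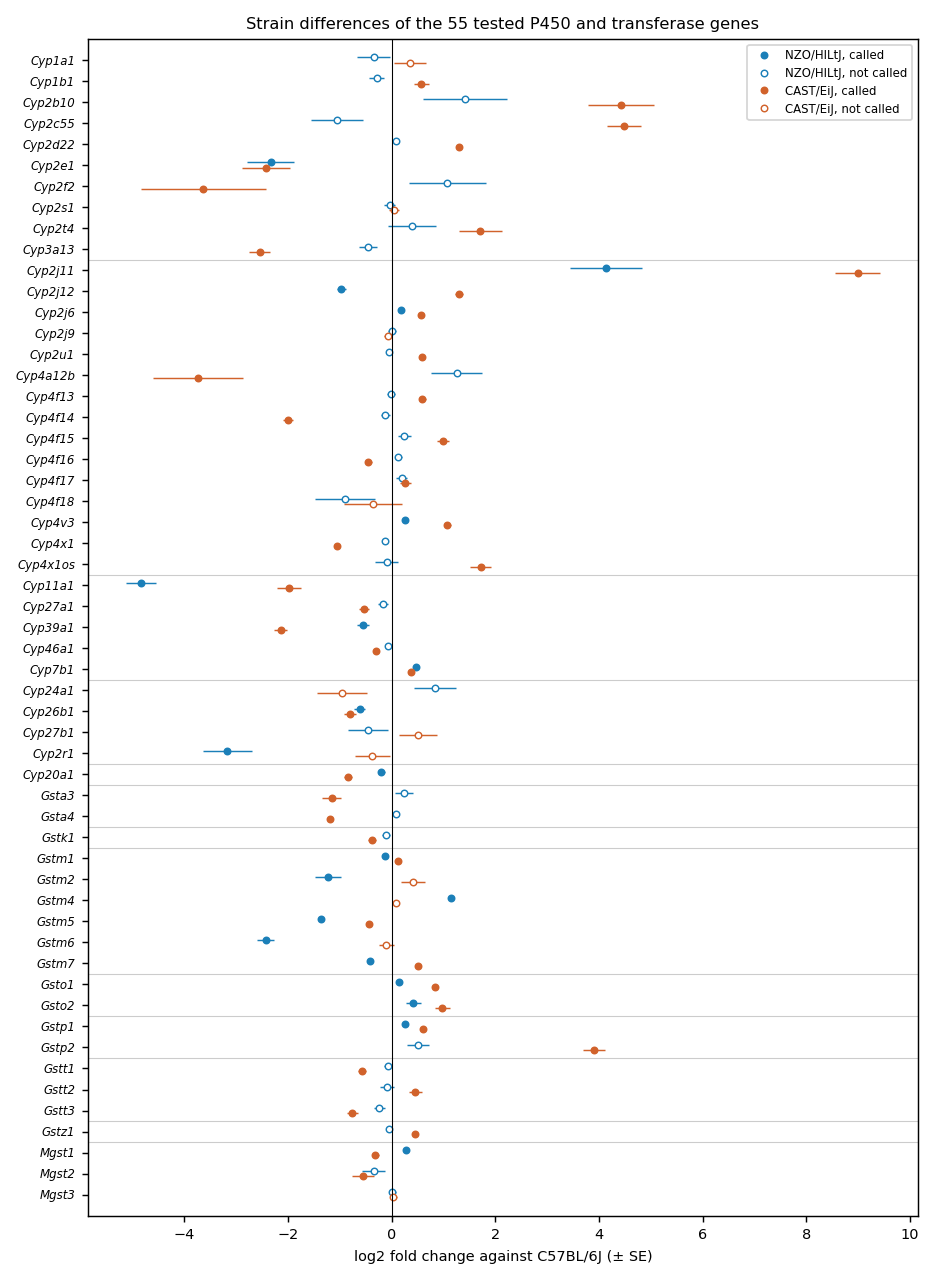
Log2 fold changes of the 55 tested members against C57BL/6J (x axis, bars ± SE), in NZO/HlLtJ (blue) and CAST/EiJ (orange), grouped by enzyme role from the foreign compound P450s at the top to the membrane-bound transferases at the bottom. Filled points were called, 21 in NZO/HlLtJ and 44 in CAST/EiJ, and the point of Cyp2j11 depends on the fit because all 12 C57BL/6J libraries were at 0.

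Of the 10 tested genes of families CYP1 to CYP3 that act mainly on foreign compounds, 5 were higher and 3 lower in CAST/EiJ than in C57BL/6J, and 1 was lower in NZO/HlLtJ, against 52.3% and 24% of all genes called in either direction in these contrasts. Cyp2d22, a member of the subfamily that oxidises many drugs, ranged from 79.7 to 91.0 CPM (median 85.9) in CAST/EiJ, 32.0 to 40.1 CPM (median 34.2) in C57BL/6J and 31.7 to 43.3 CPM (median 36.5) in NZO/HlLtJ. Every CAST/EiJ library lay above every library of the other strains. The level in CAST/EiJ was 2.46 times that in C57BL/6J (log2 fold change 1.3 ± 0.040 SE, adjusted p = 1.05e-21), and NZO/HlLtJ and C57BL/6J were not called apart (log2 fold change 0.078 ± 0.039 SE, adjusted p = 0.164).

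Cyp3a13, of the subfamily that oxidises the widest range of drugs and steroids, went the other way. Its values ran from 0.261 to 0.879 CPM (median 0.533) in CAST/EiJ, 1.71 to 4.79 CPM (median 3.28) in C57BL/6J and 1.13 to 3.43 CPM (median 2.32) in NZO/HlLtJ. The CAST/EiJ libraries all lay below the others, at a level 5.85-fold lower than in C57BL/6J (log2 fold change -2.55 ± 0.20 SE, adjusted p = 8.33e-12). Cyp1b1, which oxidises estradiol and aromatic hydrocarbons, was higher in CAST/EiJ (10.3 ± 3.43 CPM, SD, n = 12) than in NZO/HlLtJ (5.60 ± 1.52 CPM), with log2 fold change 0.86 ± 0.15 SE, adjusted p = 1.29e-05. Its CAST/EiJ libraries spread from 3.39 to 13.4 CPM (median 11.6) and overlapped the other strains. Cyp2s1, a P450 of tissues outside the liver, had means of 14.0, 13.7 and 14.6 CPM in C57BL/6J, NZO/HlLtJ and CAST/EiJ, and the difference of CAST/EiJ and C57BL/6J was 0.042 ± 0.11 (SE) on the log2 scale.

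Several P450 genes under 1 CPM differed by larger factors. They fall outside the rule for named genes and were chosen after their values had been seen. Cyp2c55 had 0.542 to 2.09 CPM (median 1.59) in CAST/EiJ, against at most 0.145 CPM in C57BL/6J and 0.070 CPM in NZO/HlLtJ, with log2 fold change 4.48 ± 0.33 SE, adjusted p = 1.41e-12 for CAST/EiJ against C57BL/6J. Cyp2b10, known for its induction by phenobarbital, was above 0 in all CAST/EiJ libraries (0.103 to 0.351 CPM, median 0.229) and at 0 in 8 of 12 C57BL/6J libraries. Cyp2e1, which oxidises ethanol, was higher in C57BL/6J (0.333 ± 0.224 CPM, SD, n = 12) than in NZO/HlLtJ (0.0643 ± 0.0534 CPM), with log2 fold change -2.33 ± 0.45 SE, adjusted p = 0.000208. Cyp1a1, the best known target of the aryl hydrocarbon receptor, was not called between any strains and stayed between 0.042 and 0.487 CPM. Cyp2f2, a P450 known from the airways, reached 23.5 CPM in NZO/HlLtJ male control 1, the library with pituitary reads, and at most 0.750 CPM in the other 35. Cyp2t4 and Cyp4b1 also had their highest values in that library (1.3 and 0.663 CPM), as did Cyp2a5, Cyp27b1 and Gsta3 (0.292, 0.451 and 1.51 CPM). What the pituitary reads contribute was not tested.

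Of 15 tested genes of the CYP4 family, the Cyp2j cluster and Cyp2u1, the P450s of fatty acids, 9 were higher and 4 lower in CAST/EiJ than in C57BL/6J, and 3 were higher and 1 lower in NZO/HlLtJ. Of all genes 52.3% and 24% were called in these contrasts, and the 9 include the antisense gene Cyp4x1os. CYP2J enzymes make epoxides and hydroxy acids from arachidonic acid. Cyp2j12 separated all 3 strains, with 2.49 to 4.52 CPM (median 3.48) in NZO/HlLtJ, 5.33 to 8.39 CPM (median 6.82) in C57BL/6J and 9.78 to 19.9 CPM (median 17.3) in CAST/EiJ. No library of 1 strain lay within the range of another. NZO/HlLtJ was lower than C57BL/6J (log2 fold change -0.98 ± 0.084 SE, adjusted p = 1.76e-10), and CAST/EiJ higher (log2 fold change 1.29 ± 0.081 SE, adjusted p = 4.34e-14).

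The neighbour Cyp2j11 had 0 counts in all 12 C57BL/6J libraries, 0 to 0.128 CPM (median 0.0583) in NZO/HlLtJ and 0.723 to 3.07 CPM (median 1.85) in CAST/EiJ. It too was chosen after its values had been seen. Against a floor of 3 counts over the 12 C57BL/6J libraries, CAST/EiJ (782 counts) was at least 243-fold higher and NZO/HlLtJ (29 counts) at least 8.58-fold higher. Cyp2j6 rose in smaller steps from C57BL/6J (27.7 ± 2.47 CPM, SD, n = 12) through NZO/HlLtJ (31.4 ± 3.02) to CAST/EiJ (41.2 ± 5.0), and all 3 pairs were called, CAST/EiJ against C57BL/6J with log2 fold change 0.57 ± 0.051 SE, adjusted p = 1.22e-10. Cyp2j9, the highest of the cluster per length, did not follow. Its means were 38.3 ± 4.77, 38.6 ± 5.90 and 36.5 ± 4.40 CPM in C57BL/6J, NZO/HlLtJ and CAST/EiJ, with a difference of -0.072 ± 0.074 (SE, log2) between CAST/EiJ and C57BL/6J. The coding sequences of the 5 Cyp2j genes were 76.9% to 88.7% identical. None of the 5 shared more than 0.964% of its 50-base sequences with any Cyp2j gene. That highest share was of Cyp2j11 with Cyp2j7, which is not among the members.

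The Cyp4f cluster was split as well. CYP4F enzymes hydroxylate the end of fatty acids and of the leukotrienes made from them. Cyp4f14 had 1.06 to 2.00 CPM (median 1.40) in CAST/EiJ, 3.94 to 6.59 CPM (median 5.68) in C57BL/6J and 3.05 to 6.62 CPM (median 5.55) in NZO/HlLtJ, so that all CAST/EiJ libraries lay below the others (log2 fold change -2.01 ± 0.10 SE, adjusted p = 1.89e-16 against C57BL/6J). Its neighbour Cyp4f13 had 13.7 to 16.5 CPM (median 15) in CAST/EiJ against 7.81 to 12 CPM (median 9.84) in C57BL/6J and 7.88 to 13.3 CPM (median 9.75) in NZO/HlLtJ. Here the CAST/EiJ libraries all lay above (log2 fold change 0.59 ± 0.070 SE, adjusted p = 3.13e-08). Cyp4f15 was 1.98-fold higher in CAST/EiJ than in C57BL/6J (log2 fold change 0.98 ± 0.12 SE, adjusted p = 5.92e-08), and Cyp4f16 was lower (log2 fold change -0.46 ± 0.067 SE, adjusted p = 1.22e-06). Cyp4f16 summed with its near-identical neighbour Cyp4f37, which had at most 3 counts in a strain, gave the same -0.46 on the log2 scale. In NZO/HlLtJ 0 of the 5 tested genes of the cluster, Cyp4f13 to Cyp4f17, were called against C57BL/6J, where 24% of all genes were.

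Cyp4x1, a P450 known from brain, was 2.07-fold lower in CAST/EiJ. Its values were 6.95 to 10.6 CPM (median 8.84) in CAST/EiJ, 16.6 to 21.2 CPM (median 17.7) in C57BL/6J and 13.5 to 19.4 CPM (median 16.7) in NZO/HlLtJ, without overlap between CAST/EiJ and the rest (log2 fold change -1.05 ± 0.059 SE, adjusted p = 2.62e-15 against C57BL/6J). The antisense gene Cyp4x1os was higher in CAST/EiJ (0.977 ± 0.292 CPM, SD, n = 12) than in C57BL/6J (0.294 ± 0.0881 CPM), with log2 fold change 1.71 ± 0.20 SE, adjusted p = 3.32e-08. Whether the counting used the strand is not given in the sources used here, so reads of this pair may not be told apart, and their sum was lower in CAST/EiJ by the log2 fold change -0.92 ± 0.054 (SE). Cyp4v3, whose human counterpart is mutated in a lipid storage disease of the retina, was called in all 3 contrasts, with means of 9.79 ± 1.28 CPM in C57BL/6J, 11.7 ± 0.968 in NZO/HlLtJ and 20.5 ± 2.43 in CAST/EiJ (SD, n = 12). Cyp2u1, a hydroxylase of long-chain fatty acids, had 19.9 to 25.5 CPM (median 24.4) in CAST/EiJ, above all libraries of C57BL/6J (12.9 to 19.4 CPM, median 15.1) and NZO/HlLtJ (13.1 to 17.1 CPM, median 14.9), with log2 fold change 0.59 ± 0.044 SE, adjusted p = 1.74e-12 against C57BL/6J.

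All 5 tested P450 genes of sterols and steroids were called between CAST/EiJ and C57BL/6J, 4 lower in CAST/EiJ and 1 higher. In NZO/HlLtJ 2 were lower than in C57BL/6J and 1 higher. Of all genes 52.3% and 24% were called in these contrasts. Cyp39a1, which hydroxylates the oxysterol that Cyp46a1 makes, ordered the strains, with 6.06 to 7.44 CPM (median 6.5) in C57BL/6J, 2.67 to 6.37 CPM (median 4.35) in NZO/HlLtJ and 1.01 to 2.24 CPM (median 1.44) in CAST/EiJ. The CAST/EiJ libraries lay below all others, and those of NZO/HlLtJ and C57BL/6J overlapped. The fall was 4.43-fold in CAST/EiJ (log2 fold change -2.15 ± 0.12 SE, adjusted p = 5.38e-15) and 1.48-fold in NZO/HlLtJ (log2 fold change -0.56 ± 0.11 SE, adjusted p = 0.000408). Cyp46a1 was lower in CAST/EiJ (30.6 ± 2.86 CPM, SD, n = 12) than in C57BL/6J (38.0 ± 2.61 CPM), with log2 fold change -0.31 ± 0.059 SE, adjusted p = 5.75e-05. Cyp27a1, a mitochondrial sterol hydroxylase, was lower too (log2 fold change -0.54 ± 0.090 SE, adjusted p = 1.08e-05). Cyp7b1, which acts on oxysterols and neurosteroids, was higher than in C57BL/6J in both other strains. It had 7.01 to 9.19 CPM (median 8.22) in C57BL/6J, 9.73 to 12.8 CPM (median 11.3) in NZO/HlLtJ and 9.34 to 11.8 CPM (median 10.6) in CAST/EiJ, and C57BL/6J lay below the range of both (log2 fold change 0.46 ± 0.050 SE, adjusted p = 2.16e-08 in NZO/HlLtJ).

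Cyp11a1, the enzyme that cuts the side chain of cholesterol to start steroid synthesis, was the member with the widest gap between NZO/HlLtJ and C57BL/6J. Its mean over all libraries was under 1 CPM, and it was chosen after its values had been seen. The values were 0.824 to 2.67 CPM (median 1.76) in C57BL/6J, 0.220 to 0.652 CPM (median 0.405) in CAST/EiJ and 0 to 0.147 CPM (median 0.0594) in NZO/HlLtJ, with no overlap between any 2 strains. NZO/HlLtJ was 28.7-fold below C57BL/6J (log2 fold change -4.84 ± 0.29 SE, adjusted p = 6.05e-14) and CAST/EiJ 3.94-fold (log2 fold change -1.98 ± 0.23 SE, adjusted p = 1.56e-08).

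**Figure D2:**
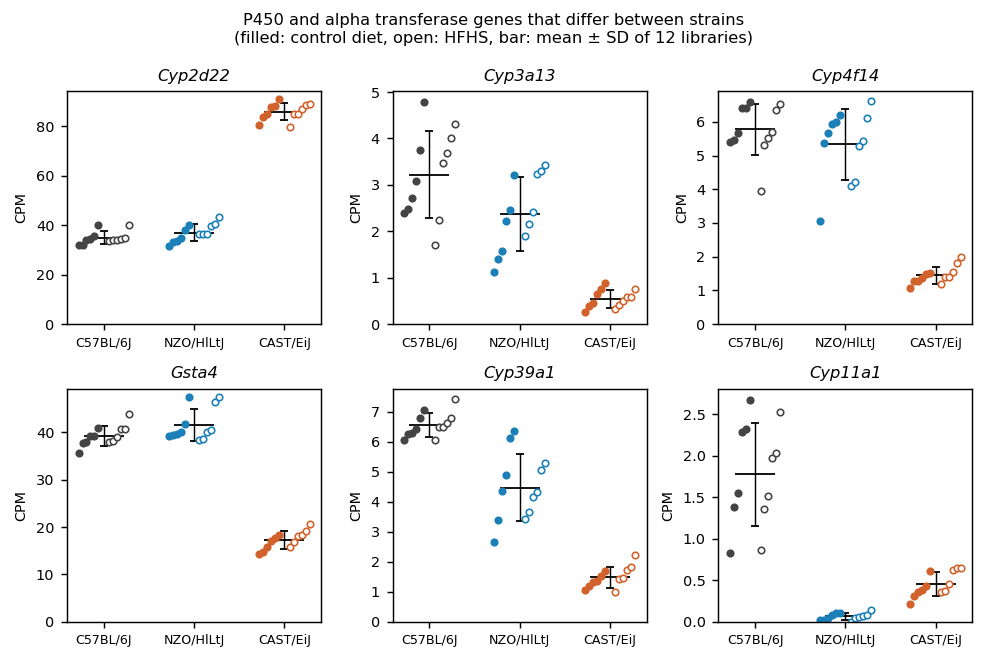
CPM per library (y axis) of 5 P450 genes and Gsta4 by strain, each point 1 library ordered by value within its diet, filled for the control diet and open for HFHS, with the mean ± SD of 12 libraries as a black bar. CAST/EiJ lies apart from both other strains in all 6 genes, above them in Cyp2d22, below them in Cyp3a13, Cyp4f14, Gsta4 and Cyp39a1, and between them in Cyp11a1.

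Among the P450s of the vitamins A and D, Cyp26b1, which breaks down retinoic acid, was highest in C57BL/6J. Its values were 28.4 to 55.3 CPM (median 39.6) in C57BL/6J, 15.5 to 35.4 CPM (median 28.4) in NZO/HlLtJ and 19.0 to 33.4 CPM (median 21.1) in CAST/EiJ. The ranges overlapped, and both other strains were called lower than C57BL/6J (log2 fold change -0.62 ± 0.11 SE, adjusted p = 8.7e-05 in NZO/HlLtJ and log2 fold change -0.80 ± 0.11 SE, adjusted p = 6.82e-07 in CAST/EiJ). The 3 genes of vitamin D were all under 1 CPM and were chosen after their values had been seen. Of these, Cyp2r1, which starts the activation of vitamin D, was called lower in NZO/HlLtJ, with 0 to 0.183 CPM (median 0.0458) against 0.106 to 0.731 CPM (median 0.259) in C57BL/6J (log2 fold change -3.17 ± 0.47 SE, adjusted p = 6.46e-06). Cyp24a1, which degrades the active form, and Cyp27b1, which makes it, were called only between CAST/EiJ and NZO/HlLtJ among the 3 strain contrasts, Cyp24a1 lower (log2 fold change -1.79 ± 0.43 SE, adjusted p = 0.000942) and Cyp27b1 higher in CAST/EiJ (log2 fold change 0.96 ± 0.38 SE, adjusted p = 0.0370). The call of Cyp27b1 was lost in 9 of 36 fits that left out 1 library each, and with a Hox score as a covariate. Cyp20a1, a P450 with no settled substrate, was lower in CAST/EiJ (8.74 ± 1.19 CPM, SD, n = 12) than in C57BL/6J (15.7 ± 1.17 CPM), with log2 fold change -0.85 ± 0.073 SE, adjusted p = 5.61e-11. The call of its smaller fall in NZO/HlLtJ (log2 fold change -0.20 ± 0.072 SE, adjusted p = 0.0386) was lost in 12 of the 36 fits that left out 1 library. This call was also lost without the filter on low counts, without the libraries of low Hox sums, and with a Hox score as a covariate.

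All 6 tested mu-class genes of the chromosome 3 cluster were called between NZO/HlLtJ and C57BL/6J, 5 lower in NZO/HlLtJ and 1 higher. Of all genes 24% were called in this contrast, 12.3% lower and 11.7% higher. Gstm5, a mu form known from brain and testis, had 23.0 to 33.3 CPM (median 28.5) in NZO/HlLtJ, 41.5 to 63.6 CPM (median 54.5) in CAST/EiJ and 66.2 to 80.0 CPM (median 73.2) in C57BL/6J. The 3 ranges did not overlap, and NZO/HlLtJ was 2.59-fold below C57BL/6J (log2 fold change -1.37 ± 0.059 SE, adjusted p = 1.61e-17). Gstm6 had 0.414 to 0.928 CPM (median 0.584) in NZO/HlLtJ, 2.28 to 4.68 CPM (median 2.97) in C57BL/6J and 1.74 to 4.85 CPM (median 2.95) in CAST/EiJ. All NZO/HlLtJ libraries lay below all others, 5.38-fold lower than C57BL/6J (log2 fold change -2.43 ± 0.16 SE, adjusted p = 6.42e-13), while CAST/EiJ and C57BL/6J were not called apart (log2 fold change -0.11 ± 0.15 SE, adjusted p = 0.547).

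At the far end of the cluster Gstm4 went the other way. It had 11.6 to 13.9 CPM (median 12.7) in NZO/HlLtJ, against 4.94 to 6.68 CPM (median 5.62) in C57BL/6J and 4.70 to 7.10 CPM (median 5.97) in CAST/EiJ. Every NZO/HlLtJ library lay above every other, 2.21-fold higher than C57BL/6J (log2 fold change 1.15 ± 0.061 SE, adjusted p = 2.64e-15). Gstm4 shared no 50-base sequence with another gene. Gstm2 was lower in NZO/HlLtJ (0.983 ± 0.477 CPM, SD, n = 12) than in C57BL/6J (2.3 ± 0.801 CPM), with log2 fold change -1.24 ± 0.25 SE, adjusted p = 0.000347, and the ranges overlapped. Gstm7 was highest in CAST/EiJ (42.1 ± 2.57 CPM), then C57BL/6J (29.6 ± 2.78) and NZO/HlLtJ (22.1 ± 2.84), and all 3 pairs were called, NZO/HlLtJ against C57BL/6J with log2 fold change -0.42 ± 0.054 SE, adjusted p = 4.38e-07.

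Gstm1, at the highest level per length of all members, differed by little. Its means were 147 ± 11.1 CPM in C57BL/6J, 135 ± 13.2 in NZO/HlLtJ and 161 ± 11.3 in CAST/EiJ, with overlapping libraries. NZO/HlLtJ was lower than C57BL/6J (log2 fold change -0.13 ± 0.040 SE, adjusted p = 0.0159), a call lost in 2 of 36 fits that left out 1 library, and CAST/EiJ higher (log2 fold change 0.13 ± 0.040 SE, adjusted p = 0.00831). Summed with Gstm3 and Gstm2-ps1, the set gave -0.13 and 0.13 on the log2 scale, the same as Gstm1 alone. As a share of all mu-class counts in a library, Gstm1 made up 56.2% ± 1.67 (SD, n = 12) in C57BL/6J and 67.4% ± 2.16 in NZO/HlLtJ, and Gstm5 28.2% ± 1.13 and 14.3% ± 1.69.

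**Figure D3:**
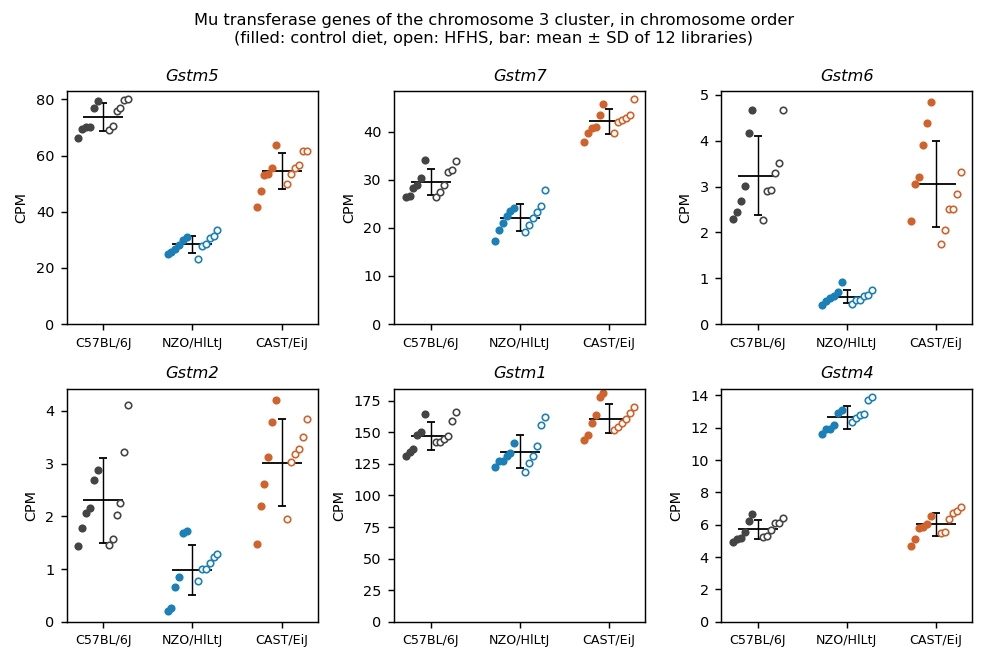
CPM per library (y axis) of the 6 tested mu-class genes in their order along chromosome 3, by strain, each point 1 library ordered by value within its diet (filled for control, open for HFHS), with the mean ± SD of 12 libraries as a black bar. The NZO/HlLtJ libraries lie below all others for Gstm5 and Gstm6, above all others for Gstm4, and within the range of C57BL/6J in part for Gstm1, Gstm2 and Gstm7.

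Gstp1 is the major pi form of most tissues, and Gstp2 a near copy of low level. Gstp2 had 7.22 to 12.6 CPM (median 9.91) in CAST/EiJ, 0.412 to 1.01 CPM (median 0.627) in C57BL/6J and 0.316 to 1.99 CPM (median 0.921) in NZO/HlLtJ. All CAST/EiJ libraries lay above all others, 14.9-fold above C57BL/6J (log2 fold change 3.90 ± 0.20 SE, adjusted p = 5.94e-16) and 10.5-fold above NZO/HlLtJ (log2 fold change 3.40 ± 0.20 SE, adjusted p = 6.33e-15). Gstp1 had 97.8 to 148 CPM (median 119) in CAST/EiJ, 84.8 to 120 CPM (median 94.0) in NZO/HlLtJ and 64.0 to 91.0 CPM (median 81.7) in C57BL/6J. CAST/EiJ did not overlap C57BL/6J (log2 fold change 0.60 ± 0.052 SE, adjusted p = 7.21e-11) and overlapped NZO/HlLtJ, which was itself above C57BL/6J (log2 fold change 0.25 ± 0.052 SE, adjusted p = 0.00045).

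Gstp2 made up 7.73% ± 0.703 (SD, n = 12) of the pair's counts in CAST/EiJ, 0.843% ± 0.297 in C57BL/6J and 1.01% ± 0.477 in NZO/HlLtJ. The sum of the pair does not depend on how reads were split between them. It was higher in CAST/EiJ than in C57BL/6J (log2 fold change 0.70 ± 0.053, SE, adjusted p = 2.62e-12) and in NZO/HlLtJ than in C57BL/6J (0.26 ± 0.053, adjusted p = 0.00044). The submitters' processing notes name 1 mouse build for all strains, and whether Gstp1 reads of CAST/EiJ were counted as Gstp2 was not tested.

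**Figure D4:**
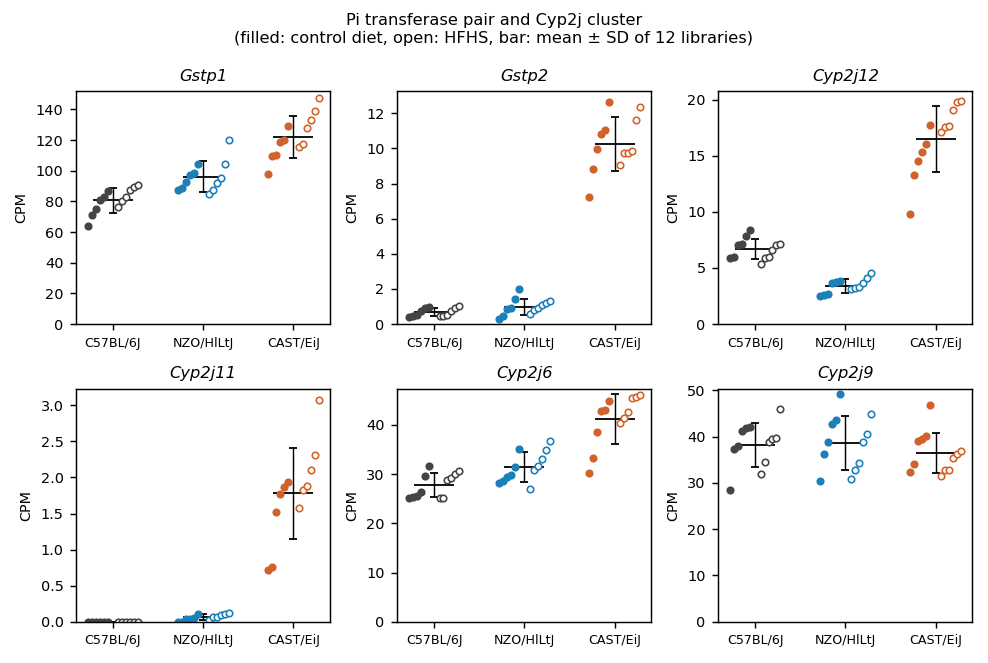
CPM per library (y axis) of the pi-class pair and of 4 tested Cyp2j genes by strain, each point 1 library ordered by value within its diet (filled for control, open for HFHS), with the mean ± SD of 12 libraries as a black bar. CAST/EiJ lies above all C57BL/6J libraries in Gstp1, Gstp2, Cyp2j12 and Cyp2j11, overlaps them in Cyp2j6 and Cyp2j9, and all C57BL/6J libraries of Cyp2j11 are at 0.

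The bases before the starts of 3 of these genes are shown from RefSeq on GRCm38.p6, so that the pair can be compared, and because Gstm5 held all 3 of the motifs searched in its window. Of the 67 members 53 had an entry, with 66 windows of 250 bases before to 50 after a start. The letters TGACNNNGC, the core of the antioxidant response element bound by NRF2, were found on either strand in 9 of the 66 windows (13.6%), against 12.4% of all 32851 windows. GCGTG, the core of the element bound by the aryl hydrocarbon receptor, was found in 17 (25.8%), against 32.4% of all. TATAAA, the TATA box, was found in 10 (15.2%), against 13.6%. In the 100 bases shown, capitals mark matches: in Gstm5 TGACNNNGC, whose last 5 letters are GCGTG on the opposite strand, and in Gstp1 GCGTG. The TATAAA of Gstm5 lay at position 40 after the start, outside the bases shown. Gstp2 had no match in its window. A match is a description of letters in the C57BL/6J reference, and the sequences of the other strains were not used here.
Gstp1 (chr19:4037913-4038012, - strand): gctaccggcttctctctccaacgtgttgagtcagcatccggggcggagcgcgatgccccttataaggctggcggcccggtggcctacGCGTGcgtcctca
Gstp2 (chr19:4042222-4042321, - strand): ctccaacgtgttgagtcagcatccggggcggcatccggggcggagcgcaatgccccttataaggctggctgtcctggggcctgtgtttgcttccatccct
Gstm5 (chr3:107895754-107895853, + strand): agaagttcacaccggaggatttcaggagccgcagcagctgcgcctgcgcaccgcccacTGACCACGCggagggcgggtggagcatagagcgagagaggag

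Gsta4, the alpha-class enzyme that conjugates hydroxynonenal from lipid peroxidation, had 14.3 to 20.6 CPM (median 17.4) in CAST/EiJ, 35.7 to 43.7 CPM (median 39.0) in C57BL/6J and 38.4 to 47.4 CPM (median 40.0) in NZO/HlLtJ. All CAST/EiJ libraries lay below the others, 2.28-fold lower than C57BL/6J (log2 fold change -1.19 ± 0.049 SE, adjusted p = 2.11e-18). Gsta3, under 1 CPM and chosen after its values had been seen, was lower in CAST/EiJ as well (log2 fold change -1.16 ± 0.18 SE, adjusted p = 4.21e-06). The omega-class neighbours Gsto1 and Gsto2, which reduce disulfides and dehydroascorbate, were both higher in CAST/EiJ. Gsto1 had 25.8 to 34.5 CPM (median 29.8) there, above all libraries of C57BL/6J (14.6 to 19.3 CPM, median 16.7), with log2 fold change 0.84 ± 0.048 SE, adjusted p = 4.39e-15, and Gsto2 had 1.5 ± 0.276 against 0.763 ± 0.214 CPM (SD, n = 12), with log2 fold change 0.97 ± 0.14 SE, adjusted p = 1.28e-06. Both were also called in NZO/HlLtJ against C57BL/6J (adjusted p = 0.0442 and 0.0353), calls lost in 13 and 10 of 36 fits that left out 1 library. The call of Gsto1 was also lost without the libraries of low Hox sums and in limma on the deposited log2 values.

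The theta-class cluster on chromosome 10 was split. Gstt1, which acts on small halogenated compounds, and Gstt3 were lower in CAST/EiJ than in C57BL/6J (log2 fold change -0.58 ± 0.076 SE, adjusted p = 1.93e-07 and log2 fold change -0.76 ± 0.11 SE, adjusted p = 5.96e-07), and Gstt2 was higher (log2 fold change 0.46 ± 0.13 SE, adjusted p = 0.00415). Gstz1, which also works in the breakdown of tyrosine, had 27.9 to 36.1 CPM (median 33.8) in CAST/EiJ, above all C57BL/6J libraries (21.5 to 27.0 CPM, median 24.3), with log2 fold change 0.45 ± 0.046 SE, adjusted p = 1.93e-09. Gstk1, of mitochondria and peroxisomes, was lower in CAST/EiJ (log2 fold change -0.38 ± 0.078 SE, adjusted p = 0.000135). Mgst1, a membrane-bound transferase and peroxidase, had means of 12.5 ± 1.10 CPM in NZO/HlLtJ, 10.3 ± 1.37 in C57BL/6J and 8.30 ± 1.11 in CAST/EiJ (SD, n = 12), and all 3 pairs were called. Mgst3 had means of 48.4 ± 4.87, 48.6 ± 6.92 and 49.3 ± 4.74 CPM in C57BL/6J, NZO/HlLtJ and CAST/EiJ, and its strain differences were at most 0.026 ± 0.068 (SE) on the log2 scale.

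Markers of several cell types also differed between strains, and their part in the differences above was not tested. The 5 markers of pericytes and smooth muscle summed to 102 to 145 CPM in CAST/EiJ, against 213 to 264 CPM in C57BL/6J and 227 to 296 CPM in NZO/HlLtJ. The 6 oligodendrocyte markers summed to 6031 to 11848 CPM in CAST/EiJ, 12473 to 16307 CPM in C57BL/6J and 9087 to 17384 CPM in NZO/HlLtJ. The 7 astrocyte markers, at 3590.5 to 5616 CPM in CAST/EiJ and 3596 to 4576 CPM in C57BL/6J, overlapped. The 5 endothelial markers summed to 187 to 243 CPM in CAST/EiJ, 259 to 307 CPM in C57BL/6J and 269.9 to 348 CPM in NZO/HlLtJ. The 4 ependymal markers summed to 28.8 to 48.1 CPM in CAST/EiJ, 22.5 to 35.8 CPM in C57BL/6J and 15.8 to 27.4 CPM in NZO/HlLtJ, without overlap between CAST/EiJ and NZO/HlLtJ. Markers of choroid plexus (5.98 to 2929 CPM) and of cerebellar granule cells (24.7 to 1382 CPM) varied between the libraries of every strain. With the 3 libraries of low Hox sums left out, 22, 46 and 46 members were called in the 3 strain contrasts in the order given above, and with a Hox score as a covariate 20, 44 and 44. The shares of all genes called in these fits are not given here, so the counts cannot be read against them.

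Lists of partner genes were compared in the same fit. Of 20 genes of glutathione synthesis and reduction, 9 were higher and 4 lower in CAST/EiJ than in C57BL/6J, and 3 higher and 5 lower in NZO/HlLtJ. Glo1, the glyoxalase that clears methylglyoxal with glutathione, had 226 ± 11.9 against 111 ± 4.83 CPM, SD, n = 12, log2 fold change 1.03 ± 0.035 SE, adjusted p = 1.1e-20 in CAST/EiJ against C57BL/6J. Gclc, the catalytic subunit of glutathione synthesis, was higher in CAST/EiJ (70.1 ± 2.57 against 56.8 ± 2.24 CPM, SD, n = 12, log2 fold change 0.30 ± 0.026 SE, adjusted p = 5.69e-11). Hpgds, a sigma-class transferase that makes prostaglandin D and is not in the list by its symbol, was lower (2.3 ± 0.616 against 5.47 ± 0.693 CPM, SD, n = 12, log2 fold change -1.26 ± 0.11 SE, adjusted p = 1.34e-10). Of 18 phase II and epoxide enzymes 2 were higher and 9 lower in CAST/EiJ, and 1 and 5 in NZO/HlLtJ, where Aldh1a1, which makes retinoic acid, was lower (113 ± 13.6 against 182 ± 19.5 CPM, SD, n = 12, log2 fold change -0.69 ± 0.061 SE, adjusted p = 2.76e-10).

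Of 11 genes that supply P450s with electrons and haem, 1 was higher and 4 lower in CAST/EiJ, and 0 and 2 in NZO/HlLtJ. Cyb5b, a cytochrome of the outer mitochondrial membrane, was lower in both, in CAST/EiJ with 133 ± 9.56 against 178 ± 11.5 CPM, SD, n = 12, log2 fold change -0.42 ± 0.040 SE, adjusted p = 3.09e-10. Por, the reductase that all microsomal P450s need, was not called in either of these contrasts. Of 12 tested receptors of foreign compounds and lipids, 4 were higher in NZO/HlLtJ and 0 lower, and in CAST/EiJ 2 were higher and 2 lower. Ahr, the aryl hydrocarbon receptor, was among the 4 (6.21 ± 0.931 against 4.72 ± 0.699 CPM, SD, n = 12, log2 fold change 0.39 ± 0.086 SE, adjusted p = 0.000859). Of 16 genes of the NRF2 group 1 was higher and 3 lower in NZO/HlLtJ, and 5 and 3 in CAST/EiJ, and of 16 genes of cholesterol synthesis 0 and 5 in NZO/HlLtJ, and 3 and 7 in CAST/EiJ. In the order named, the median log2 fold changes of the 6 lists were 0.13, -0.21, -0.051, -0.0015, 0.041 and -0.092 in CAST/EiJ and -0.11, -0.12, -0.018, -0.013, -0.040 and -0.072 in NZO/HlLtJ. The share of all genes called in these contrasts was 52.3% and 24%. In the 3 diet contrasts 0 genes of these 6 lists were called.

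The comparison of HFHS with control asks what the diet changed within a strain. In edgeR's test 0 of 55 members were called in C57BL/6J (0% of all genes), 0 in CAST/EiJ (0.343% of all genes) and 0 in NZO/HlLtJ (0.0547%). With an unadjusted p under 0.05 there were 2, 12 and 7 of 55 members, against 2.72%, 18.7% and 10.2% of all genes. In CAST/EiJ, limma on the deposited log2 values called 2 of 55 members (Cyp2j12 and Cyp2j11, against 1.38% of all genes) and DESeq2 2 of 45 (Cyp2j12 and Cyp2f2, against 4.11%), and both called 0 in the other strains. Cyp2f2 was near the floor there, with 18 counts over the 12 CAST/EiJ libraries and 6 of these libraries at 0. Its log2 change of -9.49 in DESeq2 rests on those few counts. Among the 39 members with a mean of at least 1 CPM, log2 fold changes ran from -0.16 (Cyp2j12) to 0.28 (Gsto2) in C57BL/6J, from -0.52 (Gstm6) to 0.56 (Cyp1b1) in CAST/EiJ and from -0.12 (Cyp2j9) to 0.47 (Cyp3a13) in NZO/HlLtJ. The median absolute change of the 55 members was 0.066, 0.19 and 0.10, against 0.072, 0.13 and 0.10 over all genes.

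The members of smallest p in each strain are given as values. In CAST/EiJ, Cyp2j12 had 9.78 to 17.7 CPM (median 15) on control and 17.1 to 19.9 CPM (median 18.4) on HFHS (log2 fold change 0.37 ± 0.11 SE, adjusted p = 0.0902). Cyp1b1 had 3.39 to 12.8 CPM (median 8.89) and 9.23 to 13.4 CPM (median 13.0), with log2 fold change 0.56 ± 0.20 SE, adjusted p = 0.132. The 2 lowest control values of both genes were those of CAST/EiJ male control 1 and 3, whose Hox sums were 1.14 and 1.91 CPM. Hox sums ran from 1.14 to 244 CPM on control and from 233 to 333 CPM on HFHS in CAST/EiJ. The 5 red blood cell markers ran from 654 to 2538 CPM on control and from 209 to 385 CPM on HFHS in CAST/EiJ, without overlap, and their part in the diet values was not tested. With the Hox score as a covariate 0 members were called there. Gsta3 (0.84 ± 0.27, SE), Gstp1 (0.19 ± 0.073) and Cyp2j6 (0.18 ± 0.071) followed on the log2 scale, with adjusted p = 0.106, 0.152 and 0.167.

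Without CAST/EiJ male control 2, 7 of 55 members were called in CAST/EiJ, as were 9.8% of all genes. These were Cyp1b1 (log2 fold change 0.97), Gsta3 (0.94), Cyp2j12 (0.43), Cyp2s1 (0.42), Cyp2j6 (0.23), Cyp4f15 (-0.54) and Gstm6 (-0.66). Of the 3 male controls of this strain it was the only one with a Hox sum over 10 CPM (61.5 CPM). With the 2 CAST/EiJ libraries of low Hox sum and the NZO/HlLtJ one left out instead, 0 were called.

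In NZO/HlLtJ, Cyp2u1 had 13.1 to 16.4 CPM (median 13.5) on control and 14.9 to 17.1 CPM (median 15.9) on HFHS (log2 fold change 0.19 ± 0.062 SE, adjusted p = 0.255). In C57BL/6J the same gene had 12.9 to 16.5 CPM (median 14.7) and 14.7 to 19.4 CPM (median 16.4), with log2 fold change 0.18 ± 0.062 SE, adjusted p = 1.00, and in CAST/EiJ the change was 0.053 ± 0.061 (SE). It had the smallest unadjusted p of the members in both of the first 2 strains, and neither passed the adjustment. Cyp2d22 (0.14 ± 0.056, SE) and Gstz1 (0.15 ± 0.065) in NZO/HlLtJ, and Cyp4v3 (0.21 ± 0.090) and Gstp1 (0.14 ± 0.074) in C57BL/6J were next among members of at least 1 CPM. Their adjusted p was 0.358 or more. Cyp2f2 in NZO/HlLtJ had a log2 fold change of -2.87 ± 1.01 (SE), which turned to 1.61 without NZO/HlLtJ male control 1. The remaining members of smallest p, Cyp2r1 in NZO/HlLtJ and Cyp4a12b and Mgst2 in C57BL/6J, were under 1 CPM and had log2 fold changes of 2.42 ± 0.89, -1.24 ± 0.76 and -0.45 ± 0.30 (SE).

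**Figure D5:**
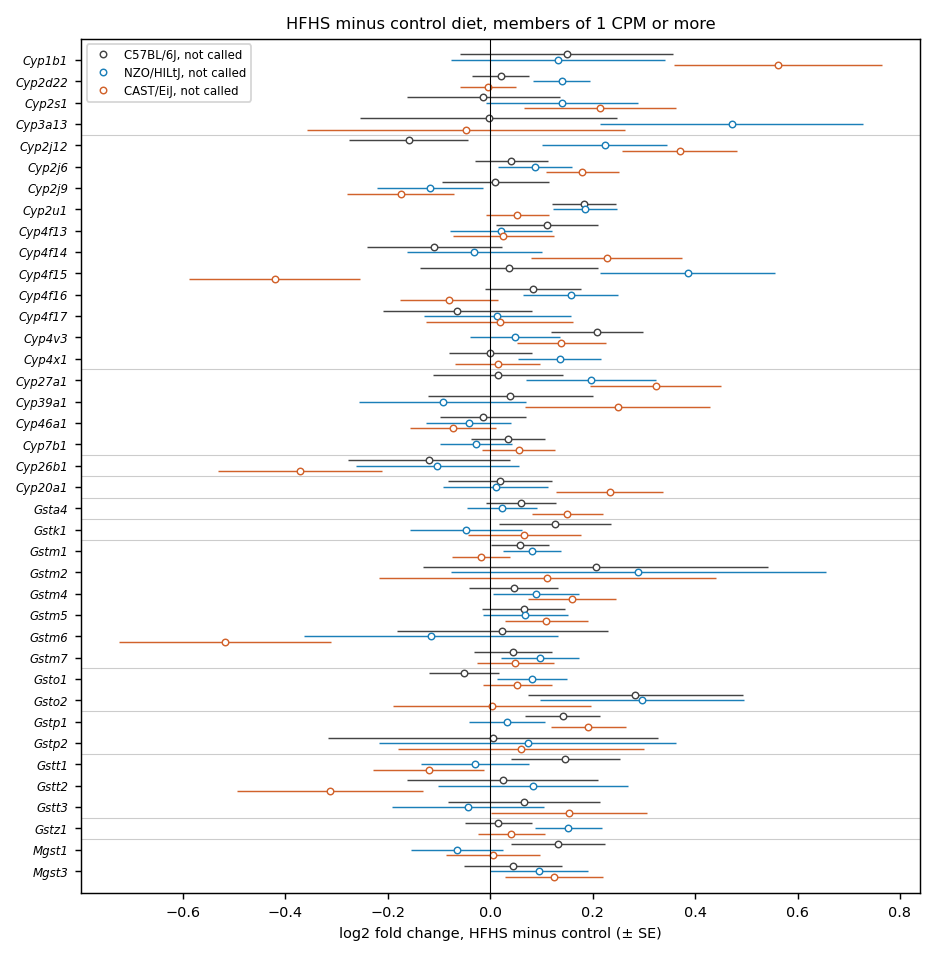
Log2 fold changes of HFHS minus control (x axis, bars ± SE) in each strain for the 39 tested members with a mean of at least 1 CPM, in the order of the plot of strain differences. All points are open because 0 members were called, and they lie between -0.52 and 0.56.

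The test of whether the diet change differed between strains called 0 of 55 members (0% of all genes), with 2 at an unadjusted p under 0.05 (8.81% of all genes) in edgeR and 0 called by limma or DESeq2. Of these, Cyp4f15 had an adjusted p of 0.449 and Cyp2j12 one of 0.452. Gsta3, Cyp2r1 and Mgst2 came next, with adjusted p of 0.589 to 0.613. For Cyp4f15 the change was 0.036 ± 0.17 in C57BL/6J, -0.42 ± 0.17 in CAST/EiJ and 0.39 ± 0.17 in NZO/HlLtJ (log2, SE). Between males and females, over all strains and diets, 0 of 55 members were called (0.0796% of all genes) and 7 had an unadjusted p under 0.05 (5.17% of all genes), with 0 called by limma or DESeq2. Gstm1 was the nearest, with 141 ± 15.8 CPM in 18 males against 154 ± 13.6 CPM in 18 females (SD) and a log2 change of -0.12 ± 0.033 (SE) (unadjusted p = 0.000724, adjusted p = 0.339). Without CAST/EiJ male control 1 it was called, as were 0.0879% of all genes (log2 fold change -0.15, adjusted p = 0.0459). Cyp4f14 (-0.23 ± 0.079, SE), Cyp7b1 (-0.10 ± 0.041), Gsta3 (0.40 ± 0.15) and Cyp4a12b (-1.85 ± 0.72) followed, with adjusted p of 0.777 to 0.914.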

How the data were processed

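Polyadenylated RNA of 36 libraries was analysed, in 12 groups of 3 by strain, diet and sex. The authors deposited expected counts per gene, rounded here to whole numbers, and log2 values that were already normalised. GRCm38 and DESeq2 are named in the submitters' processing notes. Which aligner, counter and annotation release were used, and whether strand was, is not given in the sources used here. No other build is named there for any strain, and mapping differences between strains were not tested.

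Genes passed filterByExpr (minimum count 10, minimum total 15), which left 20108. Counts were scaled by TMM (factors 0.959 to 1.04) and fitted with 1 mean per group (24 residual degrees of freedom) in edgeR 4.0.16 (R 4.3.3). Its quasi-likelihood test was adjusted by the Benjamini-Hochberg method over all genes tested, with calls under 0.05. CPM values used the library totals of the genes that passed the filter, scaled by the TMM factors. Counts of a few limit the precision of members under 1 CPM. Strain contrasts averaged diet and sex, and diet contrasts averaged sex. Alternatives were DESeq2 1.42.0, limma 3.58.1 on the deposited log2 values, RLE scaling, no filter, Hox-based settings, summed near-identical genes and each library left out. The fit was tested on simulated data.

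Coordinates are gencode vM21 on GRCm38, and the deposited ones were equal for 51 of 67 members. Promoters came from RefSeq (GRCm38.p6), with 53 of 67 members matched. Members were named if called, with a mean of at least 1 CPM, and among the 10 largest rises or falls of a contrast, or among the 5 of smallest p where fewer than 5 were called in a diet or interaction contrast, or for their level or near-identity. The 5 of smallest p were also named for sex, after the values had been seen. A role pattern that also took Cyp20a1 and Cyp21a2-ps as foreign compound P450s was corrected to other P450s. Members, roles, marker and partner lists were chosen with earlier results of these data known.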

Additional observations from a re-analysis of the deposited data

Results flagged for a closer look

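The 5 members of smallest p in each diet contrast were examined for a library far from the other 5 of its strain and diet. Among these 30 groups 4 were found, and chance alone gives about 1 in 20. The groups of the other members were not examined in this way, and Gstk1, for example, was at 11.8 CPM in C57BL/6J female HFHS 2, with the next at 8.07 CPM. The 4 found concern members under 1 CPM in most libraries. Cyp2f2 was at 23.5 CPM in NZO/HlLtJ male control 1, where the next library of its group had 0.595 CPM. This library also held pituitary hormone genes at 17460 CPM, and their part in the value was not tested. Cyp2f2 was at 0.745 CPM in NZO/HlLtJ female HFHS 2, with the next at 0.233 CPM. Cyp4a12b was at 0.289 CPM in C57BL/6J female HFHS 3, with the next at 0.103 CPM. Mgst2 was at 0.576 CPM in C57BL/6J male HFHS 3, with the next at 0.284 CPM.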

How the results depend on the processing

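The counts of members called between strains stayed within 1.5 times their value in each setting run. They were 20 to 24 between NZO/HlLtJ and C57BL/6J, 43 to 47 between CAST/EiJ and C57BL/6J and 44 to 48 between CAST/EiJ and NZO/HlLtJ, and 18 to 23, 43 to 45 and 44 to 46 with 1 library left out. The shares of all genes called in each of these settings are not given here, so the ranges describe the members alone. Of the 57 strain differences named by the rule, all in members of at least 1 CPM, none changed its direction. Of their values, 5 of 399 in other settings and 37 of 2052 with a library left out were no longer called. Members under 1 CPM are not in these totals. Among them, Cyp27b1 between CAST/EiJ and NZO/HlLtJ lost its call in 9 of 36 fits that left out 1 library. In the diet contrast of CAST/EiJ, limma called 2 members (1.38% of all genes), DESeq2 2 (4.11%), and fits with 1 library left out 0 to 7, the 7 without CAST/EiJ male control 2 (9.8%). Of the 2 members called by DESeq2, Cyp2f2 had only 18 counts in this strain. The male minus female contrast had 0 to 1 with a library left out, the 1 without CAST/EiJ male control 1. The log2 change of Cyp2f2, diet in NZO/HlLtJ, ran from -3.59 to 1.61 with 1 library left out, and was positive only without NZO/HlLtJ male control 1. The cause was not tested. No paired analysis was possible because the labels give the libraries no replicate numbers. Low counts limit members under 1 CPM, and 1 reference build limits near-identical genes.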
